A study of Mus musculus with 16 samples.

Results

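The regions described are promoters that were open in every library of an ATAC-seq series on mouse male germ cells. ATAC-seq uses a transposase that cuts accessible DNA, so a pile-up of cuts marks open chromatin. Peaks of the 16 libraries on chromosomes 1 to 19 were merged wherever they overlapped by 1 bp or more, which gave 358583 regions. A region was kept when it held a peak in 16 of 16 libraries and its strongest peak carried the authors' label promoter. That left 7276 regions, 2.03% of all merged regions and 29.7% of the 24490 whose strongest peak was labelled promoter. Presence in all libraries and the promoter label chose the regions, and neither is a result. The strongest peak within a library carried that label in all 16 libraries for 7122 of the regions, and in fewer than 9 libraries for 27.

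Cells came from Scml2-KO and wild-type C57BL/6 mice at 4 stages. Thy1+ and c-Kit+ spermatogonia were taken at postnatal day 7 (P7), and pachytene spermatocytes (PS) and round spermatids (RS) from adult testis. Each of the 8 combinations of stage and genotype had 2 libraries. Scml2 encodes a Polycomb-related protein of the germline, and the knockout mice lack it in all 4 stages. About 500000 Thy1+ or c-Kit+ cells, 250000 PS or 1000000 RS went into a reaction. Fragments of 250 to 500 bp were selected on a gel and read as 75-base single reads. Stage, age, cell isolation and cell number change together between the P7 and adult groups, and their effects cannot be told apart. Between PS and RS, stage and cell number also change together and cannot be told apart. The labels do not say that the 2 libraries of a group came from separate animals, so a p-value here reflects library-to-library spread that could be purely technical.

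A promoter is the stretch around a transcription start site where RNA polymerase II and general factors assemble. Most mammalian promoters of widely used genes lie in CpG islands, stretches that are rich in unmethylated CG dinucleotides and depleted of nucleosomes in most cell types. During spermatogenesis spermatogonia divide by mitosis, spermatocytes pair and recombine their chromosomes in meiosis, and round spermatids begin the compaction of the nucleus that ends in sperm.

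The sequences of 7 of these promoters serve as examples. The 200 bases before the start site are given 5′ to 3′ on the strand of the gene, from the RefSeq promoter table of build GRCm38.p6, with matches to 13 searched motifs in capitals on either strand. Hmgcs1 and Sp4 were among the strongest regions, Pdia4 is a strongly open chaperone gene, and Smarcd1 and Ppm1k had the largest positive and negative adult differences. Slc39a7 had a steady rank, and Dazl is a germ cell gene. The windows lie at chr13:119690151-119690350 (+) for Hmgcs1, chr12:118301441-118301640 (-) for Sp4, chr6:47813513-47813712 (-) for Pdia4, chr15:99702087-99702286 (+) for Smarcd1, chr6:57535488-57535687 (-) for Ppm1k, chr17:34031691-34031890 (-) for Slc39a7 and chr17:50293621-50293820 (-) for Dazl.
Hmgcs1: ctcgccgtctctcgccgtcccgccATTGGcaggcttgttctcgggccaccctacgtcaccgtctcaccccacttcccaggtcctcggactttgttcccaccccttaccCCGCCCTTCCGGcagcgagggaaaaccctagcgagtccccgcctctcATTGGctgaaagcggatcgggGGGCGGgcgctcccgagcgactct
Sp4: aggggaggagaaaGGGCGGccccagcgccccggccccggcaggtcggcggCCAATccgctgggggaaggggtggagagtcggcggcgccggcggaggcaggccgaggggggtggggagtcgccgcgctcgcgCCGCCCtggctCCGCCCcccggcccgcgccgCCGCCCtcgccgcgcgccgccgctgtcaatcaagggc
Pdia4: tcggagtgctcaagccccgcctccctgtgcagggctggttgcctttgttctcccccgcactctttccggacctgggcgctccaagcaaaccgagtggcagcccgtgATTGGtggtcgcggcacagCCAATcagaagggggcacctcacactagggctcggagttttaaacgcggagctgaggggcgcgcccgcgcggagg
Smarcd1: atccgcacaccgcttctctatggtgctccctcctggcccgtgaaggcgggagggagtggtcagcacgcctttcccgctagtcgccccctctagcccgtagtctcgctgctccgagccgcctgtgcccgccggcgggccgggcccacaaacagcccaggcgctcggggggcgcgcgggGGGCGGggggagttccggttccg
Ppm1k: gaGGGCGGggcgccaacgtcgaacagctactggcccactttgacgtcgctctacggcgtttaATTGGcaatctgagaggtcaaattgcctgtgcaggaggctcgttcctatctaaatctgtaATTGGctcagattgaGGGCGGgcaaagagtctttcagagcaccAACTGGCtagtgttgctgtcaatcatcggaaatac
Slc39a7: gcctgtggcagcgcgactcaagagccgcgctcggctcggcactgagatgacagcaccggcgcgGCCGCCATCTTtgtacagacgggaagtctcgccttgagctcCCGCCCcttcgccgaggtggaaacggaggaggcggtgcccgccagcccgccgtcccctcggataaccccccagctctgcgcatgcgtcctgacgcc
Dazl: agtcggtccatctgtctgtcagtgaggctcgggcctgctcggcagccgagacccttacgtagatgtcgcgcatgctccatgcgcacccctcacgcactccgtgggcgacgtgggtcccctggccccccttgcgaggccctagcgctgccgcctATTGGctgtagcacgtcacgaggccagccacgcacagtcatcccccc
The 7 windows held 11 (Ppm1k) to 31 (Sp4) CG dinucleotides in 200 bases. GC boxes (GGGCGG, the letters bound by Sp1-family factors) stood 4 times before Sp4, 2 times before Hmgcs1 and Ppm1k and once before Smarcd1 and Slc39a7. CCAAT boxes (CCAAT, the letters bound by NF-Y) stood 2 times before Hmgcs1, Pdia4 and Ppm1k and once before Sp4 and Dazl. Slc39a7 also held the YY1 motif, Hmgcs1 an ETS motif and Ppm1k a MYB motif. In Hmgcs1 the ETS match joins a GC box, so their capitals form a single run.

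The start-site windows of these regions were rich in CG dinucleotides. The table holds 31396 start sites on chromosomes 1 to 19, each with 250 bases before and 50 after the start, and 8441 of them fell in 5963 of the 7276 regions (82%). Their median G+C content was 64%, against 53% over all start sites of the table. The ratio of observed to expected CG dinucleotides had a median of 0.844 in the regions and 0.389 over all start sites, and 0.6 or more was reached by 88.6% and 36.4% of the sites. Start sites in regions with peaks in 9 to 15 libraries had a median ratio of 0.643, those in regions with peaks in 1 to 8 libraries 0.263 and those in no region 0.189. By single numbers of libraries the median was 0.245 at 2, 0.242 at 3 and 0.226 at 4 libraries, and from there it was higher at each step up to 0.756 at 15. Among the open promoters themselves the ratio told little of strength. Its Spearman correlation with the median strength rank over the 16 libraries was 0.0571, over 8441 start sites that share libraries and base composition. Of the start sites in the regions 89.4% belonged to protein-coding genes, against 64% in the whole table.

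**Figure D1:**
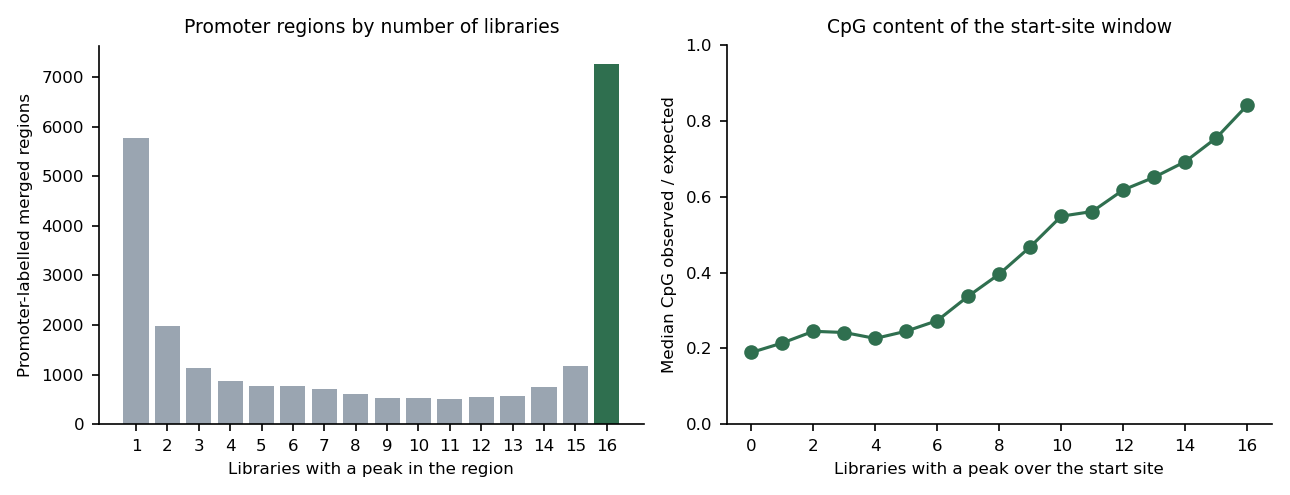
Left, number of promoter-labelled merged regions (vertical axis) by the number of libraries with a peak (horizontal axis), with the 7276 regions open in all 16 in green; right, median ratio of observed to expected CG dinucleotides in start-site windows by the number of libraries with a peak over them. Regions seen in 1 library (5765) and in 16 libraries outnumber those between, and the CG ratio is 0.189 with no peak and 0.842 at 16 libraries when regions of every label are counted.

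Motif letters were searched on both strands of the same windows, and a motif of 10 or more letters is given by its name. A GC box stood in 74.2% of the windows in the open promoters and in 36% of all windows. The ETS motif (CCGGAAG) stood in 21.9% against 9%, the NRF1 motif in 2.78% against 0.968%, and the cyclic-AMP response element (TGACGTCA) in 4.13% against 1.83%. The YY1 motif stood in 1.85% against 0.631%, the palindromic CGCG element in 1.46% against 0.462%, and the E-box (CACGTG) in 11.3% against 7.14%. Each of the motifs named up to here holds a CG dinucleotide, in which the windows are rich. Shares were close for the CCAAT box (39.9% against 37.3%), the ZFP143 motif (ACTACAA, 4.18% against 3.32%) and the RFX motif (0.616% against 0.57%). The CTCF motif was rare in both, at 0.545% against 0.334%. In the other direction the TATA box letters (TATAAA) stood in 4.8% against 13.6%, and the MYB motif (AACTGNC) in 9.79% against 12.8%. These are matches to letters and show no binding.

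Strength went with the CCAAT box more than with the other common motifs. Of the 2111 windows with the highest median rank of fold enrichment over libraries 55.2% held a CCAAT box, against 26.2% of the 2111 with the lowest. A GC box stood in 78% and 69.6% of the same windows, an ETS motif in 23.6% and 18.5% and TATA letters in 3.22% and 6.3%. Start sites within 1 kb on opposite strands and pointing apart (head to head) stood in 1052 of the 5963 regions with a start site (17.6%). Among promoter regions with a start site and peaks in 1 to 15 libraries, 323 of 5845 held such a pair (5.53%). Both start sites had to lie in the same merged region, so longer regions can hold a pair more easily. Lengths were not matched between these sets. For the median rank over libraries, head-to-head regions had a median of 59.6 and the others 49.6, and their median merged lengths were 1760 and 1599 bp.

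The regions were longer than most merged regions, and their strongest summit mostly lay just before the start. This summit lay a median of 84 bp from the nearest start site, upstream of it in 75.4% of regions, and the start site was inside the merged region in 7161 of 7276. Merged length had a median of 1612 bp and ran from 249 to 14882 bp, against a median of 1407 bp in the 766 other regions with a peak in every library and 229 bp over all merged regions. Those 766 regions were labelled intergenic (275), upstream (222), intron (138) or exon (131). Promoters thus made up 90.5% of the 8042 regions with a peak in all 16 libraries, against 6.83% of all merged regions. The strongest summit stayed within 500 bp over the 16 libraries in 5795 regions (79.6%), while in 1481 it moved further.

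Fold enrichment, the height of a summit over the list's background as the authors' caller gives it, can be ranked within a list but not compared between lists as a level. Within libraries, the median fold enrichment of the 7276 regions ran from 8.39 in the second c-Kit+ Scml2-KO library to 25.9 in the first Thy1+ wild-type library, while the median over all peaks of a list lay between 4.54 and 6.52. Lists ran from 17813 to 164060 peaks, and the open promoters made up 5.73% to 49.9% of the peaks on chromosomes 1 to 19. Replicate 1 exceeded replicate 2 in list length, in median fold enrichment, in median length and in mean number of summits in 8 of 8 groups. The median length was 926 ± 175 bp in adult and 990 ± 269 bp in P7 libraries (SD, n = 8 each), and 992 ± 269 bp in Scml2-KO and 924 ± 174 bp in wild-type libraries (SD, n = 8 each). Mean summit number was 2.67 ± 0.827 in adult and 2.59 ± 0.668 in P7 libraries, and 2.70 ± 0.923 in Scml2-KO and 2.57 ± 0.523 in wild-type libraries (SD, n = 8 each). These differences were smaller than the spread between libraries of a group of 8. In a library, length and fold enrichment of the regions went together with a Spearman correlation of 0.347 to 0.628 (median 0.515, n = 7276 regions in each library), and fold enrichment and summit number less closely (0.0493 to 0.339).

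**Figure D2:**
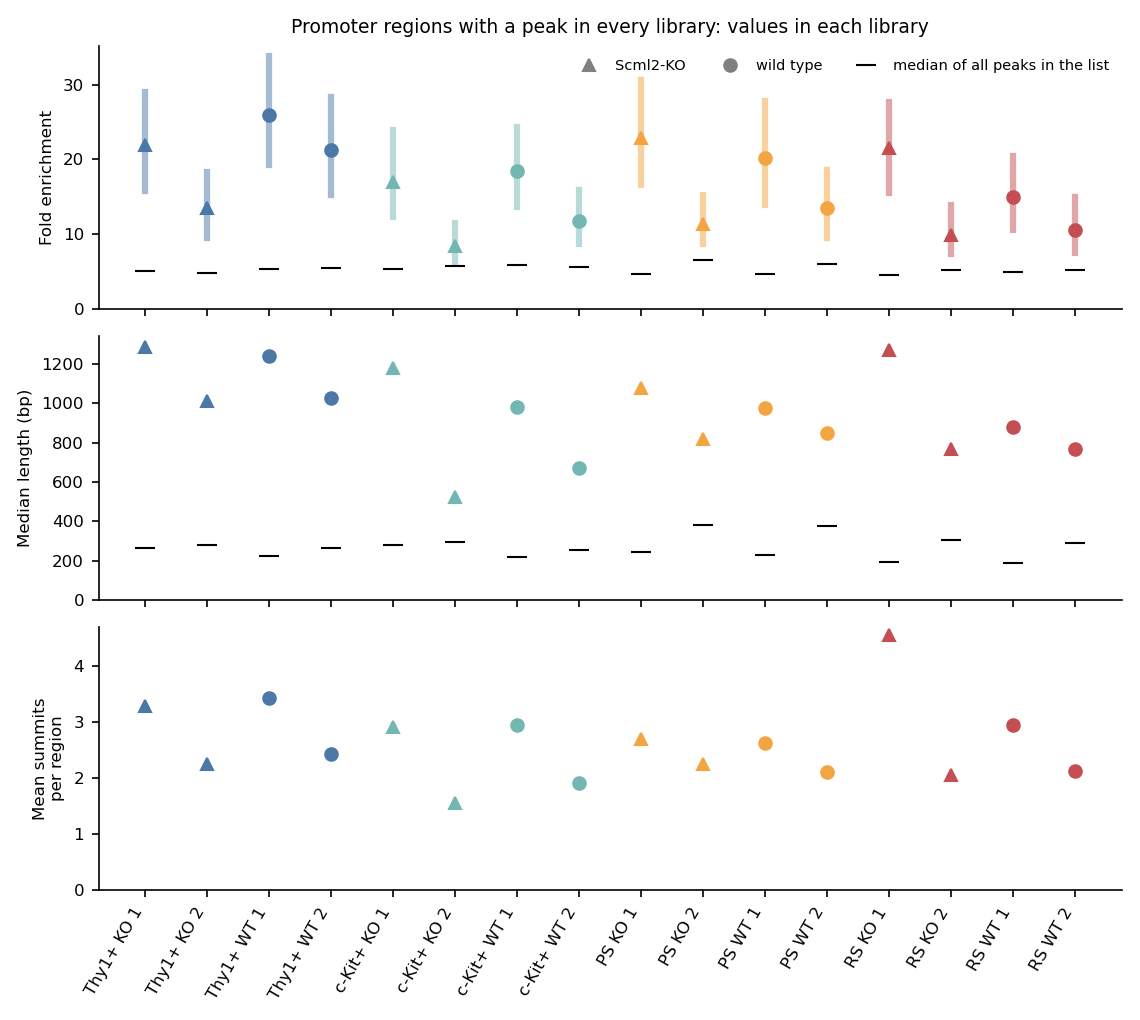
For each of the 16 libraries, ordered by stage with Scml2-KO (triangles) left of wild type (circles), the median and interquartile range of fold enrichment, the median length in bp and the mean number of summits of the 7276 regions; black dashes give the medians over all peaks of the list. Medians of fold enrichment run from 8.39 to 25.9, all above the dashes, and the first RS Scml2-KO library has 4.56 summits per region.

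In several measures a few libraries stood apart. The first RS Scml2-KO library had 164060 peaks, the most of all, and a highest fold enrichment of 48.8, the lowest of all. By the ranks of the regions, the second RS Scml2-KO library was nearer to the P7 libraries than the other adult libraries were: its median Spearman correlation was 0.605 with the 7 other adult libraries and 0.566 with the 8 P7 libraries. For the other 7 adult libraries the correlations with P7 libraries lay between 0.41 and 0.552 and those with adult libraries between 0.617 and 0.738. The differences of the named regions between adult and P7 cells are also given without that library where it held the extreme adult rank.

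Labelled stages were checked by promoter peaks over marker genes. Of 6 markers of Thy1+ spermatogonia 6 had a promoter peak in all 4 Thy1+ libraries, but 3 to 6 had one in adult libraries and 2 to 6 in c-Kit+ libraries. Of 5 markers of c-Kit+ spermatogonia 5 had one in each first c-Kit+ library and 1 in each second, against 2 to 3 in Thy1+ and 2 to 5 in adult libraries. Of 5 general germ cell markers 5 had one in each adult library and 1 to 5 in P7 libraries, with 1 in the second c-Kit+ Scml2-KO library. The spermatogonial markers thus did not set the P7 libraries apart from the adult ones. Of 6 spermatocyte markers, including Sycp3 and Spo11, 6 had a promoter peak in each of the 8 adult libraries and 0 to 2 in the P7 libraries. Of 6 round spermatid markers 4 to 6 had one in adult libraries and 0 to 1 in P7 libraries, so PS and RS were not separated by them. Markers of somatic testis cells moved with the P7 groups: 0 to 5 of 6 Sertoli cell markers had a promoter peak in adult libraries and 3 to 6 in P7 libraries. For peritubular cells the counts were 1 to 4 of 5 in adult and 3 to 5 in P7 libraries, for endothelial cells 0 to 1 of 4 and 2 to 3, for Leydig cells 0 to 1 of 5 and 0 to 3, and for immune cells 0 to 1 of 4 and 0 to 3. The second RS Scml2-KO library had 4 of the 6 Sertoli cell markers and the first had 5. Pecam1, Ptprc, Cyp11a1 and Hsd3b1 had no promoter peak in any library. The part of somatic cells in the differences between adult and P7 libraries was not tested. No somatic marker was used to choose a region, and none of these somatic markers named a promoter open in all libraries.

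Lists of genes that most cells use were named at these promoters more often than genes at large. The 7276 regions named 8401 genes, 40.4% of the 20794 genes that the peak lists name anywhere, and 1186 regions named more than a single gene. All 30 of 30 listed chaperones had such a promoter, as did 29 of 31 factors that bind CpG-rich promoters (all but Elf2 and Myc). Of 40 translation factors 37 had a promoter in the set (all but Eif2b1, Eif3i and Eif3l), and of 40 DNA replication genes 37 (all but Pold1, Prim1 and Pola2). The spliceosome list had 33 of 38 (all but Sf3a3, Sf3b3, Snrpc, Prpf31 and Eftud2), cytosolic ribosomal proteins 65 of 75, DNA damage response genes 43 of 51 and proteasome subunits 27 of 33. Polycomb and H2A ubiquitination genes had 30 of 37, respiratory chain and ATP synthase subunits 53 of 68, RNA polymerase II, Mediator and TFIID subunits 38 of 49 and mitochondrial ribosomal proteins 52 of 76. Each of these lists lay above the share of all genes.

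The other lists had smaller shares. Meiotic prophase genes had a promoter open in all libraries for 9 of 26, differentiating spermatogonia genes for 5 of 15 and replication-dependent histone genes of the Hist1 cluster for 8 of 25. These 3 shares were 34.6%, 33.3% and 32%, against 40.4% of all genes. The 3 lists are short (15 to 26 genes), and membership follows from the rule, so no test was run. With a region within 1 kb of a start site counted, the shares were 46.2%, 40% and 48%, against 47% of all genes. Stem and progenitor spermatogonia genes had 5 of 24, spermatid and sperm genes 7 of 40 and pan-germ cell genes 4 of 29. Tnp2, counted as a spermatid gene through a region it shares with Socs1, had promoter peaks in 8 adult and 0 P7 libraries. Of the somatic lists, Leydig and steroidogenic genes had 2 of 11 (Fdx1 and Scarb1), Sertoli cell markers 1 of 18 (Inhbb), and peritubular, endothelial and immune markers 0 of 11 each. None of 54 Hox and developmental regulator genes was named, although 49 of them had a promoter region in 1 to 15 libraries.

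**Figure D3:**
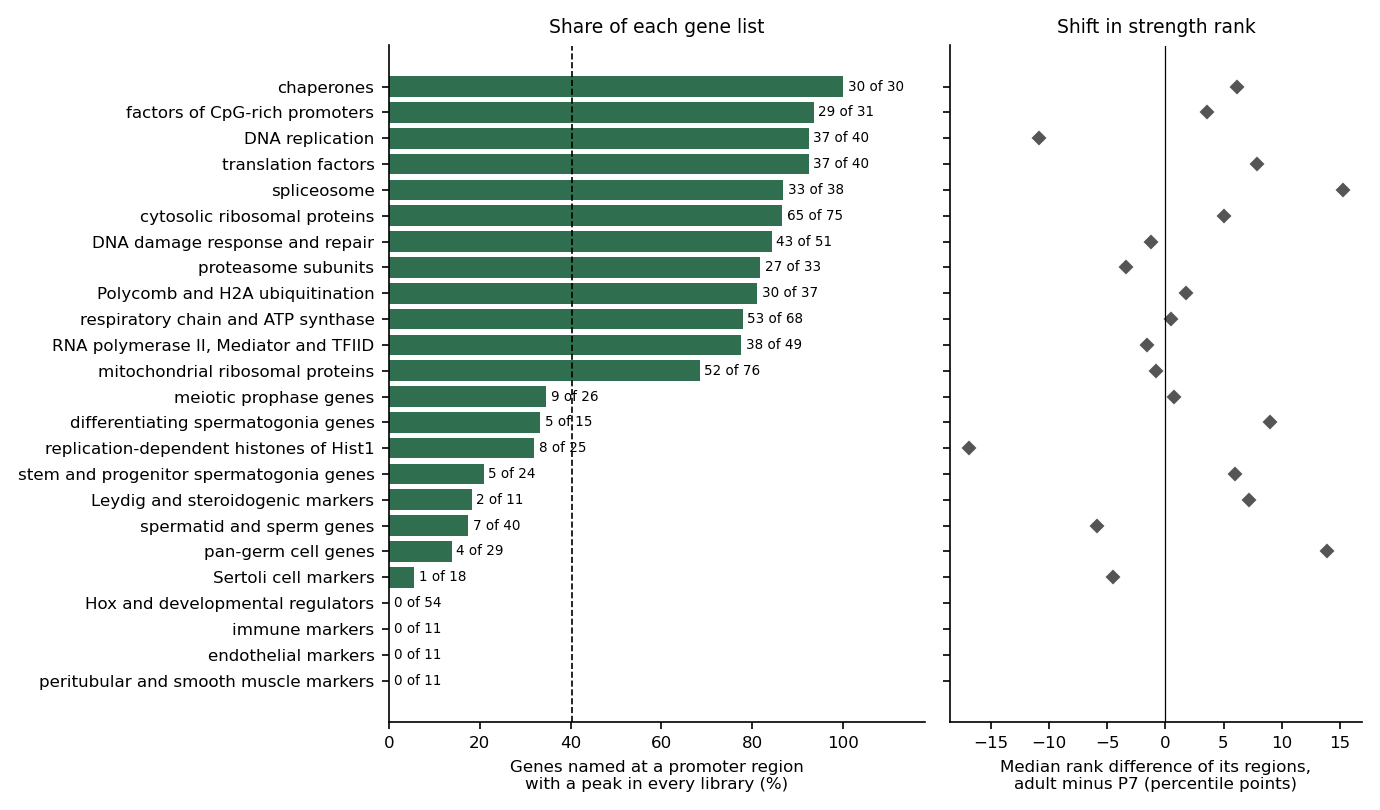
Left, share of the genes of each list (percent) that are named at a promoter region with a peak in all 16 libraries, with counts at the bars and the share over all annotated genes (40.4%) as a dashed line; right, median difference in percentile rank of the regions of each list, adult minus P7. Chaperones reach 30 of 30 and Hox and developmental regulators 0 of 54, and the medians run from -16.9 points for Hist1 histones to 15.3 points for the spliceosome.

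The 10 regions of highest median fold enrichment included a repeat and several genes of transcription. Rn45s, the ribosomal RNA precursor, had the highest median fold enrichment over the 16 libraries (73.7), but its reads can come from many near-identical copies and its value is uncertain. It was followed by the promoter of Hjurp, which loads the centromeric histone CENP-A, and its neighbour A730008H23Rik (61.1), and by Chchd7 with Plag1, a zinc finger transcription factor (42.3). Hmgcs1, an enzyme of cholesterol synthesis, had 41.7, Tmtc4 41.3, Sp4, a factor that binds GC boxes, 40.6, and Tle4, a co-repressor of the Groucho family, 40.5. Ell2, an elongation factor of RNA polymerase II, had 40.2, Eaf2, a partner of the ELL factors, 40.1, and Rps6ka5, a kinase that phosphorylates histone H3 and CREB, 39.8. The median over all 7276 regions was 15.8.

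Among the longest regions merging joined neighbouring peaks. The region of 4930526D03Rik and Rgs19 spanned 14882 bp, that of Baiap2 12183 bp, Crlf2 9999 bp, Socs1 with Tnp2 8666 bp and Gsg1 8221 bp. Within a library the median length there was 1170 bp for Rgs19, 1841 bp for Baiap2 and 7978 bp for Crlf2. For Rgs19 and Baiap2 the merged span thus far exceeded the length within a library. Socs1 is an inhibitor of cytokine signalling and Tnp2 a transition protein of spermatid chromatin. Promoter-labelled peaks naming Tnp2 were found in 8 adult and 0 P7 libraries. Peaks with other labels were not counted there. Crlf2 had a median of 22 summits per library, Sfi1 20.5 and Rn45s 19, against means of 1.55 to 4.56 per library over all 7276 regions.

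At the threshold of the rule, Basp1 with Gm5468, Eif4ebp1 and Mboat1 were just inside: their weakest peak had a −log10 q of 1.3 and a fold enrichment of 3.10, each in the first PS wild-type library. Just outside were Lrif1, with a median fold enrichment of 20.8 but no peak in the second PS Scml2-KO library, and Zfp939 (20.3) and Zfp180 (19.8), with none in the second RS wild-type library. Of the 1177 promoter regions in 15 libraries, 552 lacked a peak only in the second c-Kit+ Scml2-KO library, which has the shortest list. The median fold enrichment over all 1177 was 8.92.

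To compare samples, the fold enrichment of each region was turned into a percentile rank among the 8042 regions with a peak in every library, separately in each library, where 100 is strongest. Ranks of the open promoters correlated between replicates of a group with a median Spearman of 0.815 (0.712 to 0.901, 8 pairs of libraries) and between genotypes at the same stage with 0.819 (16 pairs). Between Thy1+ and c-Kit+ libraries the median was 0.856 (16 pairs), between PS and RS libraries 0.612 (16 pairs), and between adult and P7 libraries 0.475 (64 pairs). All pairs share the set of regions. Over the 16 libraries a region's rank spanned a median of 54.5 points, with 50 regions spanning under 10 points and 4317 over 50. So constant presence of a peak went with ranks that varied widely between libraries, and this range includes the spread between replicates.

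Adult germ cells and P7 spermatogonia ranked the same promoters differently. Of 7276 regions, 3722 differed in rank (limma, adjusted p of 0.05 or less over 8042 regions), 1972 higher and 1750 lower in adult cells. Over all 8042 regions 50.6% were called, 26.4% higher and 24.2% lower, so the share among promoters (51.2%) was near the background. The median absolute difference was 14.5 points, and 265 of the called regions differed by 50 points or more. In 386 regions all adult ranks lay above all P7 ranks (background 5.06%) and in 529 all lay below (background 7.5%). The 95% interval of a difference, before adjustment, had a median half-width of 11.9 points. Without the second RS Scml2-KO library 3611 regions were called, 3475 of them shared with the call on all libraries. With the mean of all summits of a region in place of the strongest 2365 were called, and 1785 in Scml2-KO libraries alone.

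**Figure D4:**
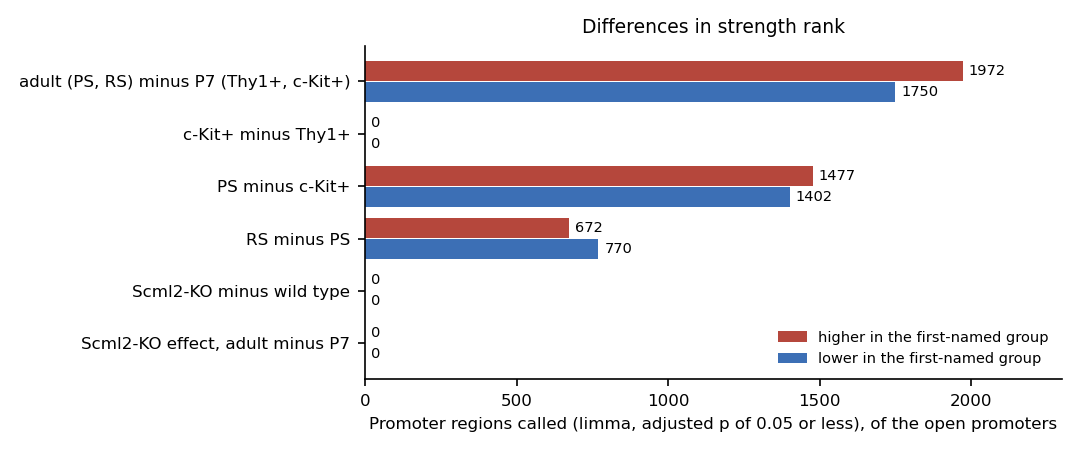
Number of the 7276 promoter regions (horizontal axis) called higher (red) or lower (blue) in the first-named group of each of 6 comparisons of percentile rank, by limma with an adjusted p of 0.05 or less. Adult minus P7 has 1972 higher and 1750 lower, PS minus c-Kit+ 1477 and 1402, RS minus PS 672 and 770, and the remaining 3 comparisons 0.

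Smarcd1, a subunit of the SWI/SNF chromatin remodeller, had the largest positive difference (chr15:99701782-99703014). Its rank was 69.2 to 97.6 with a median of 85.3 in the 8 adult libraries, against 3.33 to 25.1 with a median of 11.8 in the 8 P7 libraries. No adult rank fell into the P7 range, and the difference was 72.9 ± 4.33 points (limma estimate ± SE, adjusted p = 2.99e-07), or 74.8 points without the second RS Scml2-KO library. Trim52, a tripartite-motif protein (chr14:106105696-106107326), ranked 46.4 to 98.9 (median 88) in adult and 0.752 to 47.9 (median 10.1) in P7 libraries. Its ranges overlap through the second RS Scml2-KO library, the lowest of the adult ones, and the difference was 67.7 ± 6.78 points (adjusted p = 8.23e-06), or 71.6 points without that library.

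Phyhipl (chr10:70598195-70600363) ranked 63.3 to 94.2 (median 76.8) in adult libraries, against 2.82 to 28 (median 10.7) in P7 libraries. The region of Fam160b1 and B230217O12Rik (chr19:57359833-57361927) ranked 78.9 to 95.7 (median 88.3) in adult libraries, against 6.55 to 35.7 (median 23) in P7 libraries. Eif4a3, the RNA helicase of the exon junction complex (chr11:119299318-119301131), ranked 50.3 to 98 (median 87.5) in adult and 6.55 to 37.5 (median 13.6) in P7 libraries. In each of these 3 regions the adult and P7 ranks did not overlap. Differences were 66.1 ± 3.74 points for Phyhipl (adjusted p = 2.75e-07), 65.7 ± 3.74 for Fam160b1 (2.75e-07) and 65.6 ± 5.07 for Eif4a3 (1.54e-06; limma estimate ± SE). Without the second RS Scml2-KO library, the lowest adult one at Eif4a3, that gene differed by 69.2 points. Phyhipl then differed by 65.7 points and Fam160b1 by 64.4 points.

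Ppm1k, a mitochondrial phosphatase that activates branched-chain amino acid breakdown, had the largest negative difference (chr6:57534025-57536514). Its rank was 0.765 to 42.3 with a median of 6.44 in adult libraries, against 95.5 to 98.9 with a median of 97.5 in P7 libraries. Here the groups lay far apart, and the difference was -84.8 ± 5.44 points (limma estimate ± SE, adjusted p = 4.65e-07), or -89.8 points without the second RS Scml2-KO library. Stard5, a sterol-binding START protein (chr7:83631232-83632911), ranked 0.976 to 38.2 (median 4.93) in adult and 79.4 to 92.5 (median 91.1) in P7 libraries. St3gal1, a sialyltransferase (chr15:67174414-67178243), ranked 0.193 to 69.2 (median 6.16) in adult and 87.4 to 98.7 (median 93) in P7 libraries.

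For both genes the highest adult rank came from the second RS Scml2-KO library, and without it the differences were -83.7 points for Stard5 and -87.3 points for St3gal1, against -80.2 ± 4.30 (adjusted p = 2.64e-07) and -80.0 ± 6.72 (2.44e-06; limma estimate ± SE) with all libraries. Ccbl2, a kynurenine aminotransferase (chr3:142700312-142701857), ranked 4.46 to 30.2 (median 7.76) in adult and 73.6 to 97.6 (median 91.3) in P7 libraries. Pter, a phosphotriesterase-related protein (chr2:12923133-12924837), ranked 0.168 to 9.88 (median 2.19) in adult and 43 to 93.4 (median 87.6) in P7 libraries. The adult and P7 ranks did not overlap for either gene. Differences were -78.7 ± 4.63 points for Ccbl2 (adjusted p = 2.97e-07) and -78.3 ± 6.20 points for Pter (1.67e-06; limma estimate ± SE). At Ccbl2 the second RS Scml2-KO library had the highest adult rank, and without it the difference was -81.6 points. For Pter the difference without that library was -78.5 points.

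A few promoters of middle strength kept their place. The shared promoter of Rxrb, a retinoid X receptor, and Slc39a7, a zinc transporter (chr17:34031159-34032838), ranked 17.6 to 33.5 (median 24.7) in adult and 16.9 to 38.9 (median 27) in P7 libraries. Moap1 with Tmem251 ranked 51.9 to 73.3 in adult and 49.9 to 63.1 in P7 libraries, and Ahcyl1 58.3 to 80.6 and 61.8 to 82.2. For Mier3 the ranges were 55.9 to 80 in adult and 55.1 to 68.3 in P7 libraries, and for Ropn1l, a protein of the sperm flagellum, 58.7 to 80.2 and 55.1 to 72.3. They were chosen for these small ranges, so the values are a description.

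**Figure D5:**
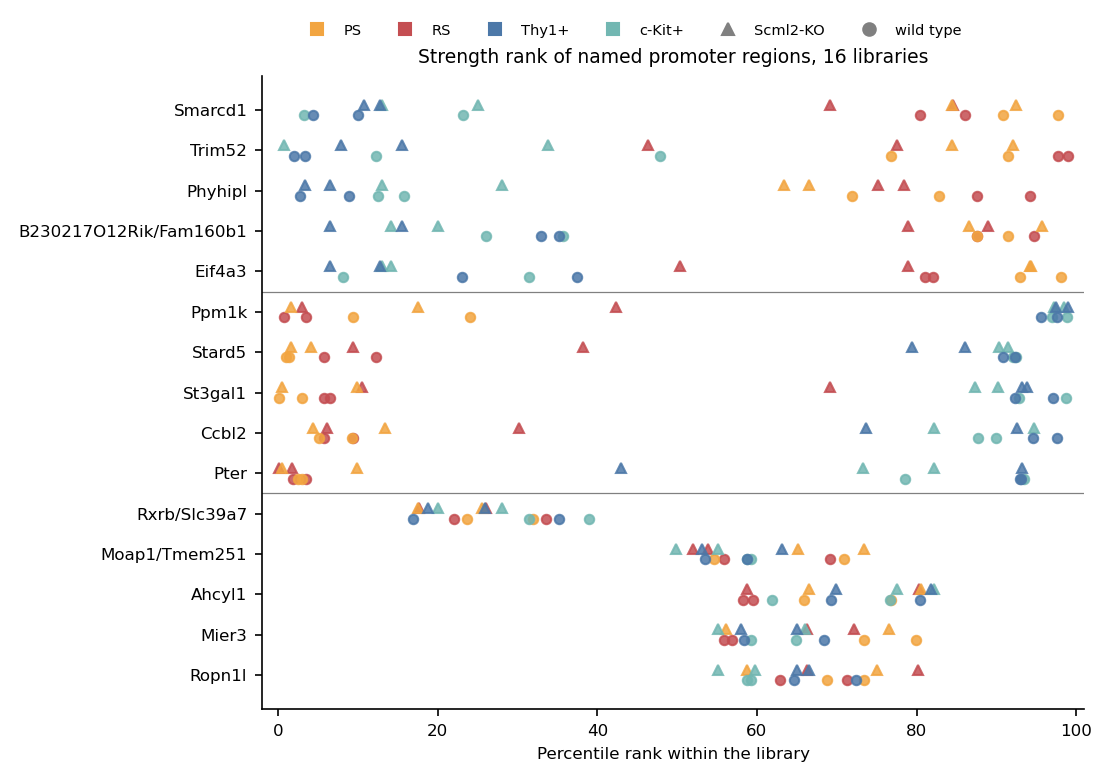
Percentile rank (horizontal axis, 100 strongest) of named promoter regions in each of the 16 libraries, coloured by stage, with Scml2-KO as triangles and wild type as circles; regions with the largest positive adult difference on top, those with the largest negative difference in the middle and those of smallest range below. Smarcd1 lies at 69.2 to 97.6 in adult and 3.33 to 25.1 in P7 libraries, and Ppm1k at 0.765 to 42.3 and 95.5 to 98.9.

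The counts of called regions in the gene lists below were set against 26.4% higher and 24.2% lower over all regions with a peak in every library, and no test of a list was run. Of 33 spliceosome regions 15 were called higher and 4 lower in adult than in P7 libraries and 14 were not called, with a median difference of 15.3 points against 1.17 over all 7276 regions. The 4 with the highest fold enrichment had differences below 0: Prpf4, a tri-snRNP protein, had mean ranks of 71.6 in adult and 89.4 in P7 libraries (adjusted p = 0.0166), and Sf3b5, Prpf19 and U2af2 were not called (-16.6, -9.60 and -0.254 points). Srsf2 and Snrpd1, picked after their values were seen, had the largest rises: the splicing factor Srsf2 had mean ranks of 78.9 in adult and 21.1 in P7 libraries (57.8 ± 3.70 points, adjusted p = 4.65e-07), and the Sm protein Snrpd1 72.4 and 15.3 (57.1 ± 5.52 points, adjusted p = 6.40e-06; limma). Translation factors had 13 higher and 6 lower of 37, with a median of 7.83 points. Etf1, the translation release factor, had mean ranks of 96.3 in adult and 87.1 in P7 libraries, Eif5 92.7 and 75.2 and Gspt1 90.3 and 72.9, while the elongation factor gene Eef1a1 had 74.7 and 88.5, and all 4 were called.

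Chaperone promoters were strong throughout, with a median over their 29 regions of 82.4 for the mean rank in adult and 71.8 in P7 libraries. Hspd1 and Hspe1 share a region. In adult libraries 9 of the 29 were called higher, near the share over all regions, and 2 lower. Hspa14 had mean ranks of 88 in adult and 98.6 in P7 libraries and was called lower (adjusted p = 0.0421, limma). Hspa8, the constitutive heat shock protein, had 96.7 and 90.5, Hsp90b1 of the endoplasmic reticulum 91.9 and 89.2 and Pdia4, a disulphide isomerase, 90.4 and 95.1, none of them called. Dnaja2, picked after its values were seen, had 78.4 in adult and 26.7 in P7 libraries (51.7 ± 5.25 points, adjusted p = 9.04e-06).

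Of 37 DNA replication regions 6 were called higher and 11 lower in adult libraries, with a median of -10.8 points. The share called lower was near that over all regions (24.2%). Orc4, an origin recognition subunit, had mean ranks of 84.9 in adult and 97.6 in P7 libraries and was called (adjusted p = 0.00883, limma), whereas Mcm4 (91.8 and 92.1), Rpa3 (93.0 and 97.4) and Gins4 (80.0 and 90.9) were not. Pole2 and Lig1, picked after their values were seen, fell most: the polymerase epsilon subunit Pole2 had mean ranks of 14.3 in adult and 68.5 in P7 libraries, and DNA ligase 1 32.9 and 84.7. Among the 6 called higher, the licensing factor Cdt1, also picked so, had 55.2 and 22.4. Hist1 histone promoters had 0 higher and 3 lower of 6 regions, with a median of -16.9 points, and the pair Hist1h2ac and Hist1h2bc had mean ranks of 8.67 in adult and 65.3 in P7 libraries (-56.6 ± 5.22 points, adjusted p = 4.63e-06). Histone genes of this cluster are near-identical, so reads may be split between them.

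Other general lists showed counts in both directions. Cytosolic ribosomal proteins had 22 higher and 15 lower of 65 in adult libraries (median 5 points), mitochondrial ribosomal proteins 18 and 14 of 51 (-0.816), and respiratory chain and ATP synthase subunits 13 and 13 of 53 (0.531). Proteasome subunits had 5 higher and 7 lower of 27 (-3.35), RNA polymerase II, Mediator and TFIID subunits 8 and 9 of 38 (-1.56), and DNA damage response genes 12 and 13 of 43 (-1.26). By level, Rpl37 led the ribosomal proteins with mean ranks of 85.9 in adult and 98.4 in P7 libraries and was called lower, Mrps14 had 95 and 95.8 and was not called, and Atp5e, a subunit of ATP synthase, had 97.6 and 67.5 and was called higher. Psma2 shared its promoter with Mrpl32 (80.6 and 87.9), Med30 of Mediator had 90.2 and 89.1 and the repair glycosylase Ogg1 85.6 and 94.3, none of them called.

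Factors that bind CpG-rich promoters had 9 higher and 3 lower of 29 in adult libraries (median 3.59 points). Their strongest promoters, those of Sp4, E2f3, Zfp143 and Sp1, had mean ranks of 90.8 to 97.8 in adult and 90.2 to 99.3 in P7 libraries, and none was called. Polycomb and H2A ubiquitination genes, the family to which SCML2 is related, had 9 higher and 3 lower of 31 regions (median 1.77 points), where 26.4% were higher and 24.2% lower over all regions. Cbx8, a chromobox subunit of PRC1, had ranks of 82 to 99.6 in the 8 adult libraries and 31.6 to 71.3 in the 8 P7 libraries, without overlap, and differed by 39.5 ± 5.15 points (limma estimate ± SE, adjusted p = 5.54e-05). Rybp, another PRC1 subunit, had mean ranks of 76.8 in adult and 57.4 in P7 libraries and was called higher, Asxl2, of the H2A deubiquitinase complex, had 66.4 and 84.9 and was called lower, and the PRC2 methyltransferase gene Ezh2 had 74.6 and 77.7 and was not called.

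Germ cell genes with a promoter open in all libraries included some known for later stages. Dazl, an RNA-binding protein of germ cells (chr17:50292547-50294506), ranked 61.7 to 93.9 in the 8 adult libraries and 38.9 to 74.6 in the 8 P7 libraries. The ranges overlap, and the difference was 28.3 ± 5.80 points (limma estimate ± SE, adjusted p = 0.00147). Tdrkh, of the piRNA pathway, had mean ranks of 73.6 in adult and 89.5 in P7 libraries and was called lower, and the region shared by Tex14, of the intercellular bridge, and Rad51c had 33.4 and 13.3 and was called higher. Ddx25 shared its region with Pus3 (49.5 and 41.8, not called).

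Of the meiotic genes, Prdm9, the methyltransferase that places recombination sites (chr17:15563797-15565182), was open in all P7 libraries at ranks of 67.6 to 95.7, and ranked 57.9 to 79.8 in adult libraries. Its groups overlap, and the difference was -16.1 ± 4.43 points (limma estimate ± SE, adjusted p = 0.00905). Stag3, a meiotic cohesin subunit that shares its region with Gpc2, had mean ranks of 67.6 in adult and 66.9 in P7 libraries, and the recombination factors Mnd1 and Mei4 69.1 and 81.4 and 41.2 and 58.8, none of them called. Meiob and Rec8, also of this list but outside the 4 of highest fold enrichment and picked after their values were seen, had low P7 ranks: Meiob 38.1 in adult and 2.80 in P7 libraries and Rec8 41.5 and 11.3, both called higher. Stem cell genes were led by Etv5, an ETS factor of stem cell renewal, with mean ranks of 93.7 in adult and 87.8 in P7 libraries, and the helix-loop-helix gene Id4 had 63 and 51.5, neither called. Foxo1, a forkhead factor of spermatogonial stem cells, had 49.4 and 23.2 and was called higher. Among differentiation genes, Rarg, a retinoic acid receptor, had 37.3 and 15.7 and was called higher, while Kit, the receptor by which c-Kit+ cells were isolated, was weak at 10 and 22.2 and was not called.

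Of the spermatid genes, Crem, a transcription factor of spermatids, had mean ranks of 85.5 in adult and 91.4 in P7 libraries, in a region that also names Gm6225, and Odf2, of the sperm tail, had 67.1 and 34.9 and was called higher. Catsper2, a sperm ion channel subunit, shared its region with the chaperone Pdia3 (62.1 and 80.6, called lower). Of the somatic genes in the set, Inhbb was weak, with mean ranks of 5.45 in adult and 9.94 in P7 libraries, as was Scarb1 (6.60 and 8.38), and neither was called. Fdx1 had 37.1 and 21.0 and was called higher.

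Promoters called higher and lower in adult cells were set side by side for sequence features. The ratio of observed to expected CG dinucleotides had a median of 0.88 over 2323 start sites called higher, against 0.792 over 2010 called lower and 0.847 over 4108 not called. CCAAT boxes stood in 34.1% of windows called higher and 42.9% of those called lower, ETS motifs in 25% and 19%, YY1 motifs in 2.8% and 0.945% and ZFP143 motifs in 2.67% and 5.97%. These shares describe the windows and no test was run on them.

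Thy1+ and c-Kit+ spermatogonia, both from P7 testis, gave no promoter whose rank differed past the threshold. In c-Kit+ against Thy1+ libraries 0 of 7276 regions were called by limma (background 0%), with 446 at an unadjusted p under 0.05. The exact permutation test had 342 at an unadjusted p under 0.05 and called 0. That test cannot give a p below 0.0286 here, and it also called 0 for PS against c-Kit+, where limma called 2879. Its 0 therefore does not decide whether any promoter differed. The median absolute difference was 5.19 points, and the 95% interval of a difference, before adjustment, had a median half-width of 16.8 points. The largest positive difference was at Dux, a multi-copy gene whose value is uncertain, with ranks of 42.0 to 80.3 in c-Kit+ and 3.37 to 9.33 in Thy1+ libraries (60.2 ± 16.2 points, adjusted p = 0.546 by limma). Klhl9, an adaptor of a ubiquitin ligase, had the largest negative one, with 32.9 to 55.1 in c-Kit+ and 63.1 to 89.1 in Thy1+ libraries (-34.1 ± 7.90 points, adjusted p = 0.501). Both were picked after their values were seen.

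PS against c-Kit+ spermatogonia, the step into meiosis that also crosses from P7 to adult, changed the rank of 2879 promoters, 1477 higher and 1402 lower in PS (limma, background 39.5%, 19.9% higher and 19.6% lower). Rps6kc1, a kinase of the S6 kinase family (chr1:190910862-190912373), ranked 95 and 88.3 in the Scml2-KO and 97.1 and 87.6 in the wild-type PS libraries, against 9.34, 6.87, 4.53 and 3.33 in the c-Kit+ libraries in the same order. All 4 PS ranks lay above all c-Kit+ ranks, by 86.0 ± 7.55 points (limma estimate ± SE, adjusted p = 9.10e-06). Exoc8, of the exocyst, with Sprtn, a protease of DNA-protein crosslinks (chr8:124892349-124899176), ranked 97.7, 99.4, 90.1 and 98.9 in PS and 7.48, 13.1, 10.3 and 19.7 in c-Kit+ libraries. The endonuclease gene Endov (chr11:119490873-119492062) ranked 81.7, 97.2, 80.7 and 94.5 in PS and 5.89, 0.752, 6.20 and 9.16 in c-Kit+ libraries. Znf512b, a zinc finger gene, and D19Ertd737e rose by 81.0 and 78.4 points, and in each of these regions the PS and c-Kit+ ranks did not overlap.

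In the other direction, Trim68, a tripartite-motif protein (chr7:102686735-102687933), ranked 8.37, 6.93, 9.32 and 12 in PS libraries, against 91.6, 91.4, 98.4 and 99.2 in c-Kit+ libraries. Its difference was -86.0 ± 6.5 points (limma estimate ± SE, adjusted p = 5.39e-06). Atp10d, a lipid flippase (chr5:72202702-72204081), ranked 5.33, 17.6, 9.32 and 5.09 in PS and 95.2, 90.2, 92.8 and 95.7 in c-Kit+ libraries. Stard5, St3gal1 and Ppm1k, low in adult cells, completed the 5 largest at -89.6, -88.9 and -84.7 points. The exact permutation test on 4 against 4 libraries cannot give a p below 0.0286, and it called 0 regions at a lowest adjusted p of 0.078. With the mean of all summits limma called 1620, in wild-type libraries alone 1879 and in Scml2-KO libraries alone 927.

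RS against PS, both adult but unlike in cell number per reaction, differed in the rank of 1442 promoters, 672 higher and 770 lower in RS (limma, background 20%, 9.28% higher and 10.7% lower). Without the second RS wild-type library 957 were called, without the second RS Scml2-KO library 1039, with the mean of all summits 390 and with the exact permutation test 0. In wild-type libraries alone 362 and in Scml2-KO libraries alone 73 were called, and Tspan17, Pkd1, Runx1 and Cox6b2 below were not among the 73. Kdm1b, a histone H3K4 demethylase, with Tpmt, a thiopurine methyltransferase (chr13:47042755-47044726), ranked 96.3 and 99.6 in the Scml2-KO and 93.5 and 91.6 in the wild-type RS libraries, against 35.3, 17.6, 44.5 and 35.6 in PS libraries in the same order. All RS ranks lay above all PS ranks, by 62.0 ± 5.52 points (limma estimate ± SE, adjusted p = 0.000135). Tspan17, a tetraspanin (chr13:54788664-54790165), ranked 53.5, 87.7, 43.0 and 78.3 in RS and 4.46, 1.87, 10.8 and 5.09 in PS libraries. Tmem65 and Pkd1, which encodes polycystin-1, rose by 56.4 and 55.8 points, also without overlap.

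Pfkp, the platelet form of the glycolytic enzyme phosphofructokinase (chr13:6646855-6649883), had the largest negative difference. It ranked 18.5, 13.6, 14.4 and 27.4 in RS libraries, against 83.5, 93.4, 94.9 and 96.7 in PS libraries, a difference of -73.6 ± 5.53 points (limma estimate ± SE, adjusted p = 4.12e-05). Cox6b2, a testis form of a cytochrome c oxidase subunit (chr7:4751757-4753630), ranked 17.2, 0.678, 12.3 and 12.3 in RS and 89.2, 62.8, 90.1 and 75.1 in PS libraries. Runx1, a transcription factor (chr16:92696625-92699200), ranked 6.88, 10.0, 10.2 and 12.3 in RS and 76.7, 62.8, 84.5 and 91.0 in PS libraries. Dlec1 and the region of Zfp651 with E530011L22Rik fell by 71.1 and 67.6 points, and none of these regions had overlapping ranks. Comparisons of PS with c-Kit+ and of RS with PS share the PS libraries, so their differences are not independent of each other.

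Loss of Scml2 moved no promoter of this set past the threshold. The rule had left out any promoter that lacked a peak in a library of either genotype. The comparison averages over the 4 stages, so a genotype difference within a single stage was not tested. In Scml2-KO against wild-type libraries limma called 0 of 7276 regions (background 0%), at a lowest adjusted p of 0.182, with 519 at an unadjusted p under 0.05. The exact permutation test within stages called 0, with 531 at an unadjusted p under 0.05. The median absolute difference was 4.23 points and the median half-width of its 95% interval, before adjustment, 11.9 points. For Smarcd1 and Ppm1k the genotype differences were -0.434 ± 4.33 and 3.74 ± 5.44 points, against 72.9 and -84.8 points between adult and P7 cells. The largest genotype differences, picked after their values were seen, were at Dleu2, a non-coding RNA gene, with ranks of 14.6 to 78.9 in Scml2-KO and 12 to 39.6 in wild-type libraries (24.1 ± 7.09 points, adjusted p = 0.615), and at the protocadherin gene Pcdh10 with 2610316D01Rik, with 1.87 to 90.7 and 38.8 to 95.7 (-34.6 ± 7.87 points, adjusted p = 0.507). In both genes the Scml2-KO and wild-type ranks overlapped.

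The genotype effect also did not differ between adult and P7 cells past the threshold. The test of that difference called 0 regions (background 0%), with 448 at an unadjusted p under 0.05 and a lowest adjusted p of 0.282. Its 95% interval had a median half-width of 23.7 points.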

How the data were processed

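ATAC-seq was done on 16 libraries, 2 for each of 8 combinations of stage and genotype. Per the submitters' processing notes the tools were Bowtie 1.1.1 and MACS2 2.1.0.20140616 and the build was mm10. For the caller, options are not given in the sources. The authors deposited a peak list per library with pileup (signal), fold enrichment (a ratio over the list's background), −log10 p and q, length and a region label. Read depth is unknown.

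Peaks on chromosomes 1 to 19 were merged (overlap of 1 bp or more). Each region's highest fold enrichment was turned into a percentile rank among 8042 regions with a peak in all libraries. Ranks were fitted with limma 3.58.1 in R 4.3.3 (8 group means, 8 residual degrees of freedom, Benjamini-Hochberg over 8042 regions). On simulated data for adult against P7, 72% of 200 regions changed 2-fold (5 false calls) and 40% of 200 changed 1.5-fold (2 false calls) were recovered among 8042. All 200 were raised and the noise was independent between libraries. In the data 50.6% of regions were called, in both directions, so these shares may not carry over.

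Text names the 10 regions of highest median fold enrichment, the 5 longest, the 3 with most summits, up to 5 per direction and comparison, the 5 of smallest rank range, up to 4 per gene list and 3 on each side of the threshold; 1 region so chosen is not reported here. Regions, gene lists and markers were chosen with earlier results of these data known. Alternatives were other overlaps, thresholds, scalings, tests, a replicate block, each genotype alone and leaving out each library.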

Additional observations from a re-analysis of the deposited data

Results flagged for a closer look

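Among 102 sets of 4 or 8 libraries examined, 14 had a library far from the others by Dixon's criterion, which chance alone passes in about 1 of 20 sets. The first RS Scml2-KO library had 4.56 summits per region, against 2.05 to 2.95 in the other adult libraries. The second RS Scml2-KO library accounted for 6 sets. Its rank was 46.4 at Trim52, against 76.8 to 98.9 in the other adult libraries, and 50.3 at Eif4a3, against 78.9 to 98.0. At Stard5 it ranked 38.2, against 0.976 to 12.3, at St3gal1 69.2, against 0.193 to 10.6, and at Ccbl2 30.2, against 4.46 to 13.4. At the region of E530011L22Rik,Zfp651 it ranked 34.1, against 5.74 to 9.35 in the other RS libraries. These regions were named for large differences at the ends of the rank scale, which leaves a library that stands apart little room on any other side.

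Other single libraries stood apart at strong promoters. Rn45s ranked 99.7 in the first PS Scml2-KO library, against 99.9 to 100 in the other adult libraries. A730008H23Rik,Hjurp ranked 91.0 in the first RS wild-type library, against 95.9 to 99.9, and Eaf2 87.1 in the second RS wild-type library, against 94.3 to 99.3. In the second Thy1+ Scml2-KO library Hmgcs1 ranked 94.6, against 98.7 to 99.6 in the other P7 libraries, Ell2 92.8, against 96.3 to 99.0, and Pter 43.0, against 73.2 to 93.5. Pter ranked 9.88 in the second PS Scml2-KO library, against 0.168 to 3.51 in the other adult libraries.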

How the results depend on the processing

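The number of promoter regions open in all libraries (7276) was 5328 with −log10 q of 5 or more, 5798 with fold enrichment of 5 or more, 5175 with lists cut to equal length, and 7274 to 7828 when 1 library was left out. The calls for adult minus P7 (3722) became 2365 with the mean of all summits in place of the strongest and 1785 in Scml2-KO alone, and 3397 to 3693 without 1 library. PS minus c-Kit+ (2879) became 1620 with the mean of all summits, 1879 in wild type alone, 927 in Scml2-KO alone, 0 with the exact permutation test and 2365 to 2895 without 1 library. RS minus PS (1442) became 390 with the mean of all summits, 362 in wild type alone, 73 in Scml2-KO alone, 0 with the exact permutation test and 957 to 1458 without 1 library. Fewer libraries enter the fits of a single genotype, and the permutation test has a lower limit on p. For the mean of all summits the cause was not tested. c-Kit+ minus Thy1+, Scml2-KO minus wild type and the genotype effect in adult minus P7 had 0 calls under every alternative run. An alternative chosen after seeing the data kept regions whose strongest summit stayed within 500 bp: 2941, 2261 and 1155 of the calls for adult minus P7, PS minus c-Kit+ and RS minus PS were among them.

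The numbers of the replicates give no pairing in the labels. Same-numbered libraries deviated together in 28 of 28 pairs of groups (correlation 0.0414 to 0.493), 24 of them over 0.1, a hint from the data and not the design. With the replicate number as a block 4003, 3211 and 1775 regions were called for adult minus P7, PS minus c-Kit+ and RS minus PS, and 0 for the other 3.

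With a fold enrichment of 5 or more the share of all genes fell to 32.6%, and shares were 76% for cytosolic ribosomal proteins, 77.5% for translation factors, 75% for DNA replication, 13.3% for differentiating spermatogonia genes, 8% for Hist1 histones and 0% for Sertoli cell markers. Counting a region within 1 kb of a start site gave 47% of all genes, 46.2% of meiotic prophase genes, 48% of Hist1 histones, 31% of pan-germ cell genes and 40% of spermatid and sperm genes. In the window of 100 bases before to 50 after the start the motif shares were 61.8% for the GC box, 28.1% CCAAT box, 16.4% ETS, 2.03% NRF1, 3.17% cyclic-AMP response element, 1.37% YY1, 1.86% TATA box, 2.30% ZFP143, 7.04% E-box, 1.17% CGCG element, 0.308% CTCF, 0.438% RFX and 4.5% MYB, lower because the window is shorter. For 105 differences of named regions 2415 alternatives were run, and changes of sign were counted only where either result was called. There were 4, each with the mean of all summits and none called there: Rpl37 (8.66 points), Cdc26,Prpf4 (1.69), Etf1 (-4.42) and 1110002L01Rik,Asxl2 (4.72). A further 185 lost and 44 gained the call. Read depth is unknown, so list length limits what is comparable.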
